A study of Drosophila melanogaster with 2 samples.

Results

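Neuroblasts with the long noncoding RNA *cherub* (*lncRNA:cherub*) were selected on measured values: a cell was taken when it held at least 1 unique molecular identifier (UMI, 1 captured transcript) of each of *wor*, *mira*, *dpn* and *cherub*, and none of *nSyb*, *repo* or *eya*. The gate found 682 of 33552 cells, 2.03% of the library (exact binomial 95% interval 1.88 to 2.19%, counting error only). The other 32870 cells, and 23 cells that passed the same gate with no UMI of *cherub*, were the groups set against them.

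The study asked what sets the speed at which the *Drosophila* eye differentiates, and made single-cell libraries from dissociated brains with eye discs of larvae aged 120 h and raised at 25 °C. One genotype was *mirr*>*ND-42* RNAi (line BL28894), in which a subunit of mitochondrial complex I is silenced under a driver named for *mirr*, a gene of the dorsal eye, and the control was *mirr*>OreR. The labels give 1 library per genotype, and the deposited tables of the 2 samples were identical, so that they hold 1 set of cells whose genotype is open here. No value below is assigned to either genotype.

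Neuroblasts are the stem cells of the fly central nervous system. They divide asymmetrically, renewing themselves and giving rise to ganglion mother cells (GMCs) or, in type II lineages, to intermediate neural progenitors (INPs). As they age they pass through a series of temporal transcription factors, and the RNA-binding protein Imp gives way to Syncrip (encoded by *Syp*). Neuroblasts of the medulla, in the optic lobe, run a temporal series of their own that includes *hth*, *ey*, *slp1*, *slp2*, *D* and *tll*. *cherub* is known from brain tumours that lack *brat*, where it links the RNA-binding proteins Staufen (encoded by *stau*) and Syncrip.

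The condition on *cherub* hardly divided the cells. A *cherub* UMI was present in 30352 cells (90.46% of the library). Of the cells with *wor*, *mira* and *dpn* and without *nSyb*, *repo* and *eya*, the condition removed 23 and kept 682. The cells removed were shallow, with a median of 5342 UMIs, against 14816 UMIs in the members. At the pooled level of the members with little *cherub* (3.01 UMIs per 10000 over the 474 cells called low in what follows) a cell of their depth would hold 1.61 *cherub* UMIs on average. Just inside the threshold, 47 members had a single *cherub* UMI and a median of 5579 UMIs in total.

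The level of *cherub* itself, in UMIs per 10000 UMIs of the cell, separated the members far more than its presence did. The lowest member stood at 0.408, the median at 4.07 and the highest at 2329 per 10000, with the middle 50% of cells between 2.37 and 42.5. The values formed 2 groups with few cells between them. After this had been seen, members at 100 per 10000 or above were called high (160 cells, 23.5%), those under 10 low (474 cells, 69.5%) and the 48 others middle.

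High members had a median of 584 *cherub* UMIs per 10000 (104.2 to 2329) and together held 171841 of the 177143 *cherub* UMIs of all members. Low members had a median of 2.87 per 10000, none above 9.98. Hemocytes, blood cells gated on their own markers and on no UMI of *wor*, *mira* or *dpn*, had a median of 3.04 per 10000, and every one of the 122 held a *cherub* UMI. After each cell was thinned to 3000 UMIs, *cherub* was found in 100% of 156 high members and 64.2% of 466 low members, against 70.6% of 119 hemocytes. The share in high members followed from the limit of 100 per 10000, and the limit of 10 held down that in low members. Low members thus lay near the hemocytes, but the limit of 10 also kept their level down. Medians were 4.45 per 10000 in gated glia and 9.66 in gated neurons. The name "with *cherub*" therefore does not set low members apart from hemocytes. Whether their *cherub* UMIs came from the cells or from the background of the library was not tested. The 48 middle members stood at 10.15 to 96.1 per 10000 (median 21.5), and all 42 that could be thinned kept a *cherub* UMI. A high level was not limited to neuroblasts, since 5457 other cells (16.6%) and 15.8% of gated neurons also reached 100 per 10000.

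**Figure D1:**
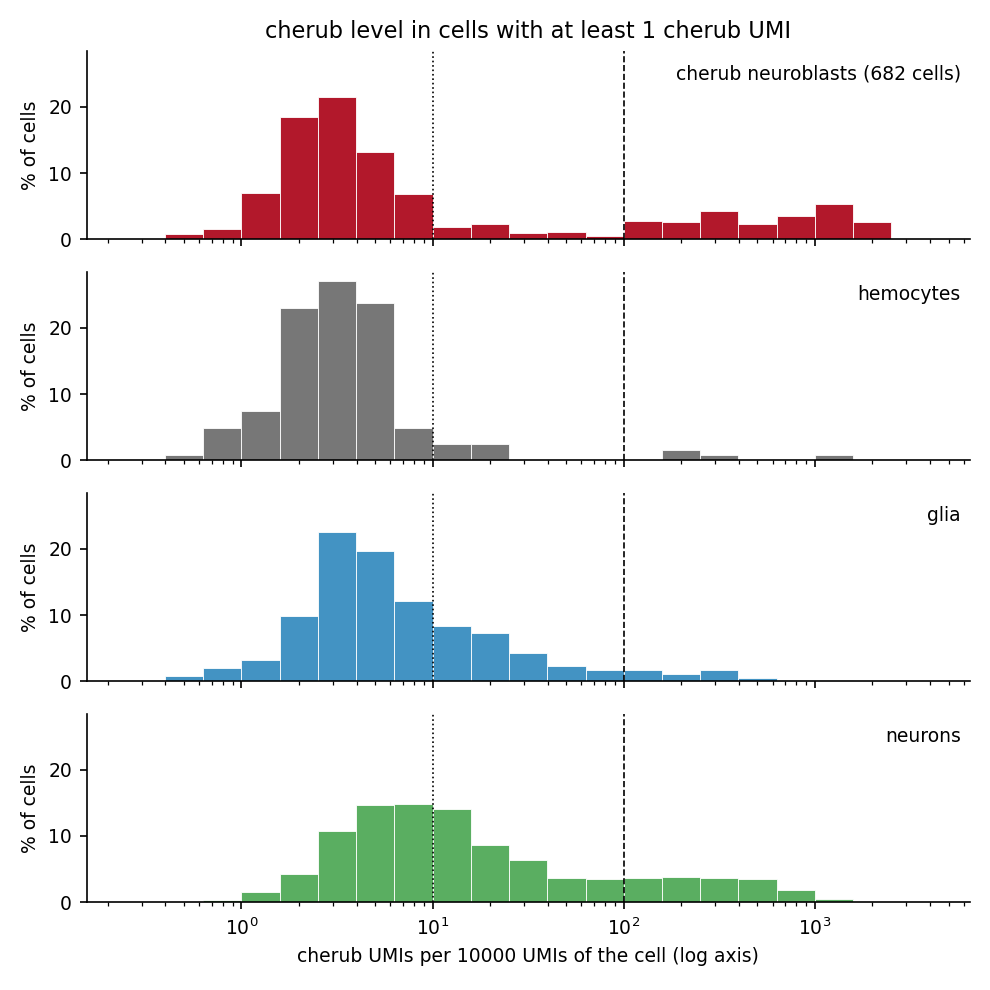
Level of *cherub* (UMIs per 10000 UMIs of the cell, log axis) in cells with at least 1 *cherub* UMI, as % of the cells of each class: the 682 members, hemocytes, glia and neurons. The dotted line marks 10 and the dashed line 100 per 10000. Most members lie in the range of the hemocytes (medians 4.07 and 3.04 per 10000), and 160 members lie at 100 or above.

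**Figure D2:**
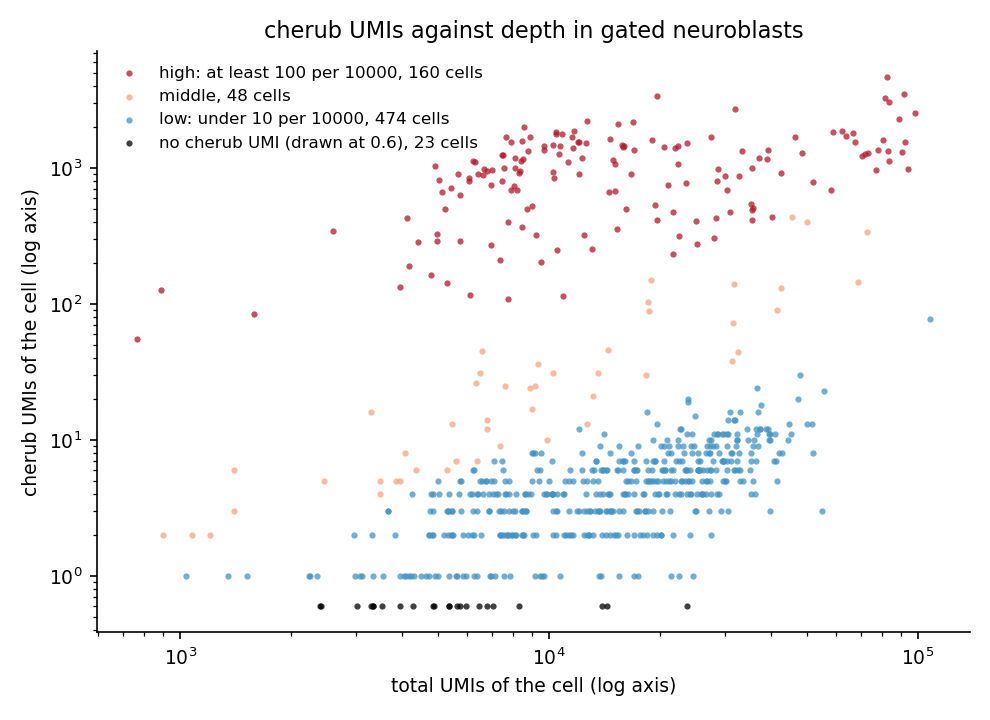
*cherub* UMIs against total UMIs (both log axes) in each gated neuroblast, 1 point per cell, coloured as high, middle, low or without *cherub*. In the low cells *cherub* UMIs grow with depth. The 160 high cells lie above the low cells at every depth, which follows from the limits on *cherub* level that define high and low cells.

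The members carried the neuroblast genes at levels above those of the other cells, as the gate required. *mira*, an adaptor for fate determinants in division, was at 5.03 per 10000 in members and 0.494 in the other cells. *wor*, a Snail-family transcription factor, was at 1.80 in members and 0.385 in the other cells, and *dpn*, a Hes-family repressor, at 1.85 in members and 0.510 in the other cells. These values chose the cells and are no finding. The gate rested on few molecules in places, because 19 members had exactly 1 UMI of each of the 3 genes. Among hemocytes of no other condition (252 cells, median 19851.5 UMIs), 8.73% held *wor*, 10.7% *mira* and 17.9% *dpn*.

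Neuroblast genes that the gate did not use separated the members to differing degrees. *ase*, a proneural factor of type I neuroblasts, had a UMI in 64.1% of members, against 12.4% of the other cells and 7.54% of those hemocytes. *cas*, a temporal factor, had one in 29.0% of members and 8.54% of the other cells, but its pooled level did not separate them, at 0.328 per 10000 in members and 0.338 in the other cells. The log2 ratio of *cas* was -0.04 when pooled, 0.60 as a mean over cells and 0.57 with depth weighting. *grh*, also counted among the neuroblast markers, separated the members little. It had a UMI in 31.8% of members, 26.5% of the other cells and 27.4% of the hemocytes of no other condition. Its pooled level was 1.47 per 10000 in members and 1.91 in the other cells (log2 ratio -0.37). *elav*, which marks neurons, had a UMI in 91.2% of members at 2.86 per 10000, against 7.82 per 10000 in gated neurons and 0.805 in gated hemocytes. Values for members without *elav* stand beside the results they change. Of the hemocyte list, *Hml* had 61 UMIs in the members, 52 of them in 1 low cell, and *repo* and *nSyb* were at 0 by the gate.

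Cells are not replicates and all came from 1 set, so no test across samples was possible. Each comparison gives pooled levels (summed UMIs of a gene over the summed UMIs of the group), their ratio and an exact 95% interval for counting error. A feature was called higher or lower at a ratio of 1.5 or more, among features with at least 100 UMIs over both groups, and transposable elements and the 7 gate genes were left out.

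Against the other cells, the members had more of the genes of the cell cycle. All 27 DNA replication genes were higher, where the share called higher among all 9471 features tested was 16%, and their median log2 ratio was 2.02, against -0.20 over all features tested. *CycE*, the cyclin of S-phase entry, stood at 5.56 per 10000 in members and 0.979 in the other cells (ratio 5.68, 5.53 to 5.83). *PCNA*, the replication clamp, was at 7.02 in members and 1.87 in the other cells. Of 37 mitosis genes, 35 were higher and 1 lower (*nuf*), with a median log2 ratio of 1.34. *cid*, the centromeric histone, was at 0.285 per 10000 in members and 0.0523 in the other cells (ratio 5.45, 4.84 to 6.12).

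Neuroblast identity genes differed in both directions. *klu*, a zinc-finger factor of neuroblasts, reached 5.35 per 10000 in members and 1.28 in the other cells (ratio 4.18, 4.07 to 4.29). *insc*, which orients the division axis, was at 0.433 in members and 0.118 in the other cells, a ratio of 3.68. Over all features tested, 16% were called higher and 39.1% lower, with a median log2 ratio of -0.20. Over the whole list of 16 neuroblast identity genes, 4 were higher (*ase*, *insc*, *klu*, *nab*) and 5 lower, and the median log2 ratio was -0.12. The determinant *pros*, which promotes differentiation, was among the lower ones, at 7.75 per 10000 in members and 50.0 in the other cells (ratio 0.155).

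Of the 16 genes of the optic lobe temporal list, 8 were higher and 5 lower, where the shares over all features tested were 16% and 39.1%. *slp2* was at 1.38 per 10000 in members and 0.403 in the other cells (ratio 3.42, 3.25 to 3.59). *ey* had a ratio of 2.21 and *D* of 2.19. *ham*, an INP factor, was at 0.829 in members and 0.212 in the other cells. *Syp* was at 62.1 in members and 23.6 in the other cells (ratio 2.64), and *Imp* at 2.16 in members and 2.88 in the other cells, inside the limit for a call (log2 ratio -0.41). Among the 60 members without *elav* the log2 ratio of *Imp* was 1.31.

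The share called lower was 39.1%. Of 17 neuronal genes tested, 16 were lower (median log2 ratio -3.50), as were all 8 Hox genes (median -1.77), 14 of 15 eye field genes and 8 of 9 hemocyte genes. *Antp* was at 0.167 per 10000 in members and 0.489 in the other cells, and *Ubx* at 0.0365 in members and 0.250 in the other cells. *chinmo*, *br* and *mamo*, which mark neuron birth time and maturing neurons, had ratios of 0.399, 0.469 and 0.502. With the other cells weighted to the members' depth, *chinmo* and *mamo* were no longer called (log2 ratios of -0.53 and -0.31) and *elav* had a log2 ratio of -0.04.

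By size alone, the highest ratios after *gammaTub37C*, a maternal gamma-tubulin (40 UMIs in members), belonged to *lncRNA:CR31386* (1.78 per 10000 in members and 0.170 in the other cells, ratio 10.4), *CG15556*, *CG14545* and *CG9993*. The log2 ratio of *gammaTub37C* ran from 0.34, below the limit for a call, to 4.05 over the settings tried. *CG15646* was the broadest of the 10 highest, with a UMI in 55.9% of members and 5.62% of the other cells. The lowest ratios included *lz*, a Runx factor of eye and blood, with 1 UMI in members and 1030 UMIs in the other cells (ratio 0.0170, counting interval 0.00043 to 0.0949). As a mean over cells its log2 ratio was -3.11, and among members without *elav* it was -0.24.

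**Figure D3:**
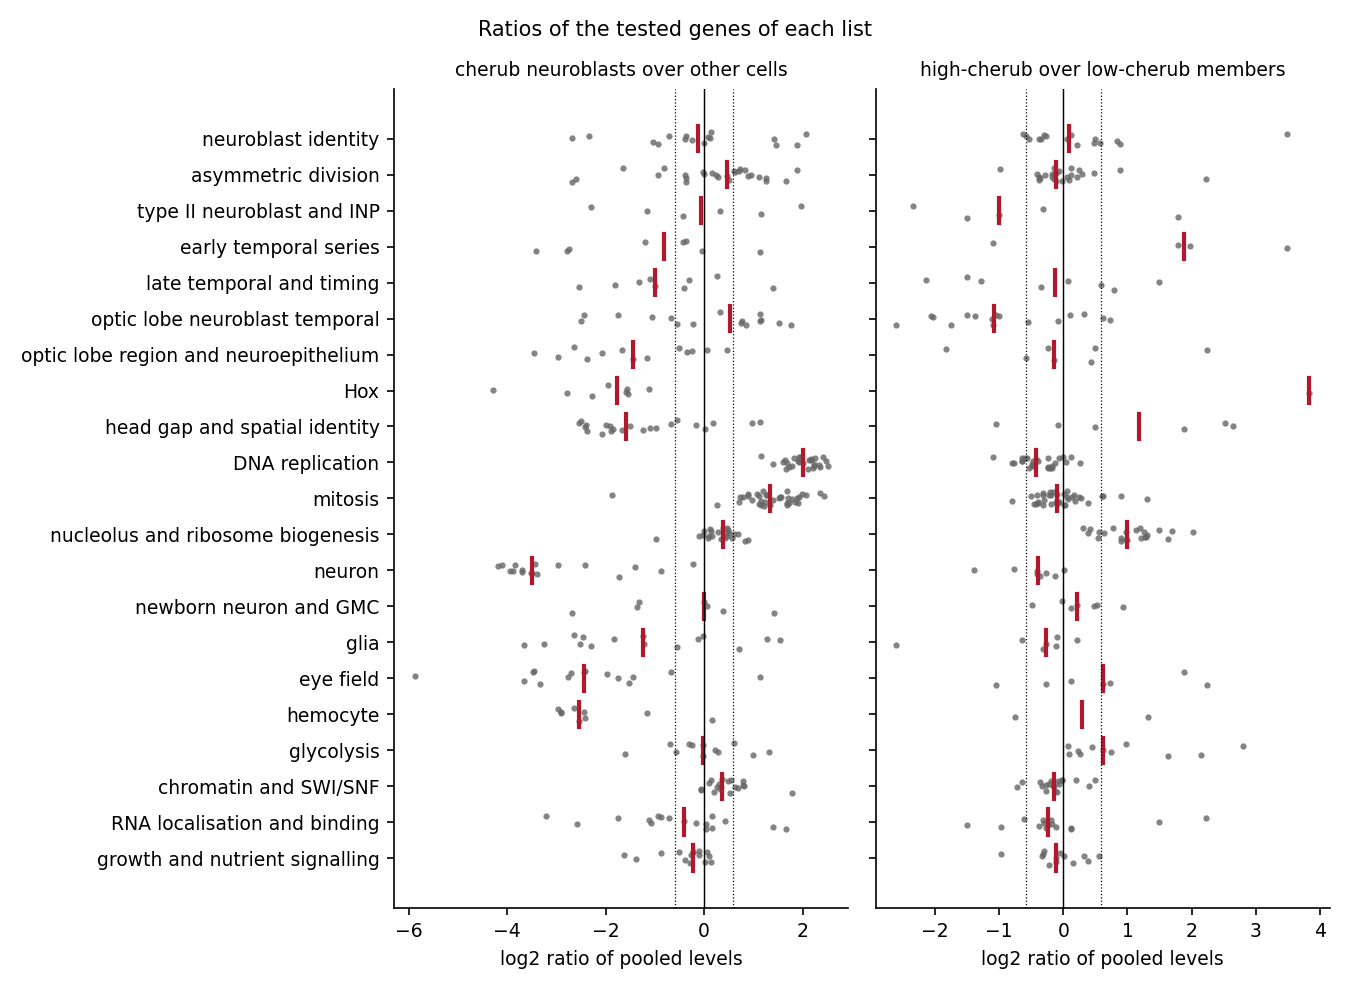
Log2 ratio of pooled levels for each tested gene (points) of 21 gene lists, with the median of the list as a bar, for members over other cells (left) and for high over low members (right). Dotted lines mark a ratio of 1.5 either way. DNA replication (median 2.02) and mitosis (1.34) lie to the right in the left panel, and nucleolus and ribosome biogenesis (0.99) in the right panel.

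The 23 neuroblasts with no *cherub* UMI were a weak reference. They held 147832 UMIs together, against 13160404 in the members, and 487 of the 5508 features tested had no UMI in them. Of the features tested, 25% were called higher and 14% lower in members. With at least 10 UMIs required in each group, 127 of 1697 features (7.48%) were higher and 304 (17.9%) lower.

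Several of the features with the highest ratios were also higher in the high members described further on. *Fas3*, a cell adhesion protein, had 2030 UMIs in members and 1 UMI in the neuroblasts without *cherub*, so that it passed the minimum through the members alone. Its log2 ratio was 4.51, and 0.44 when cells with *nSyb*, *repo* or *eya* were let into the reference. *grh*, the last factor of the embryonic temporal series, had 1940 UMIs in members (1.47 per 10000) and 1 UMI in the neuroblasts without *cherub* (ratio 21.8, 3.91 to 861). Like *Fas3*, *grh* passed the minimum through the members alone, as did *lncRNA:CR31386*. *lncRNA:CR33938* was at 80.8 per 10000 in members and 7.98 in the neuroblasts without *cherub* (ratio 10.1, 8.46 to 12.2). *lncRNA:CR31386* was at 1.78 per 10000 in members and at 0 UMIs in the cells without *cherub*, at least 8.75-fold higher with 3 counts over the group as a floor, and not called after thinning (log2 ratio 0.50). *E(spl)mgamma-HLH*, a Notch target, had the lowest ratio, at 4.84 per 10000 in members and 12.6 in the neuroblasts without *cherub* (ratio 0.385, 0.332 to 0.448), a log2 ratio of -1.38 that was -0.33 with depth weighting. *elav* was at 2.86 in members and 6.97 in the neuroblasts without *cherub*, a log2 ratio of -1.29, which was -0.13 with depth weighting. Of 27 DNA replication genes, 5 were higher and 1 lower, where the shares over all features tested were 25% and 14%, with a median log2 ratio of 0.04.

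The comparison of the 160 high members with the 474 low members divided the members by the level of *cherub*. Both groups passed the same gate, with medians of 12511.5 UMIs in high and 15961.5 UMIs in low members. *wor* was at 1.87 per 10000 in high and 1.75 in low members, *mira* at 5.61 in high and 4.76 in low members, and *dpn* at 1.45 in high and 2.01 in low members. Scrublet called 11.9% of high and 7.81% of low members as doublets. Of 5395 features tested, 15.3% were called higher and 9.01% lower in high members. Because the cells were split by *cherub* after the values had been seen, what follows is a description.

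The largest difference among noncoding RNAs was in the nearest gene upstream of *cherub*. *lncRNA:CR31386* lies on chromosome 3R (BDGP6, chr3R:11269415-11305608, minus strand), 13291 bp from *cherub* (chr3R:11247631-11256123, minus strand), with no annotated gene between them. It had 2106 UMIs in high members (5.44 per 10000) and 12 UMIs in low members (0.0140 per 10000), a ratio of 388 (221 to 751). A UMI of it was found in 83 of 160 high (51.9%), 7 of 48 middle and 11 of 474 low members (2.32%), and in 3 of 122 hemocytes. The highest high member reached 15.7 per 10000 and the highest low member 0.622.

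A second pair of neighbours was also high. *Pex7*, a peroxisomal import receptor, and *CG13305* start 322 bp apart on opposite strands of chromosome 3L (chr3L:8647145-8651011, plus strand, and chr3L:8644916-8646822, minus strand). *CG13305* was at 1.94 per 10000 in high and 0.0175 in low members (ratio 111, 66.6 to 199) and was found in 58.8% of high and 1.48% of low members. *Pex7* was at 4.67 in high and 0.123 in low members (ratio 38.01, 31.2 to 46.7), and 60 of its 105 UMIs in low members came from 1 cell. It was found in 75.6% of high and 2.74% of low members.

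Of the other genes with the largest ratios named here, all but *lncRNA:CR44024* were found in a minority of high members. *CG9993* was in 40.0% of high and 0.844% of low members, *CG13023* in 25.0% of high and 0.211% of low members, *lncRNA:CR44024* in 59.4% of high and 1.90% of low members, and *run*, a Runx factor, in 26.9% of high and 1.90% of low members. Under each of the other settings tried, among them cells without *elav*, without called doublets or at other limits on *cherub*, the 10 features with the highest ratios stayed higher in high members, the smallest value being a log2 ratio of 1.23 for *Pex7* among cells without *elav*. These features were chosen for their ratios in the same cells, so their staying higher is no independent check. Reads of *CG13023* may be shared with *CG13028*, and those of *Pex7* with *Arr2*, which overlap them on the other strand. Whether counting used strand is not given in the sources used here.

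**Figure D4:**
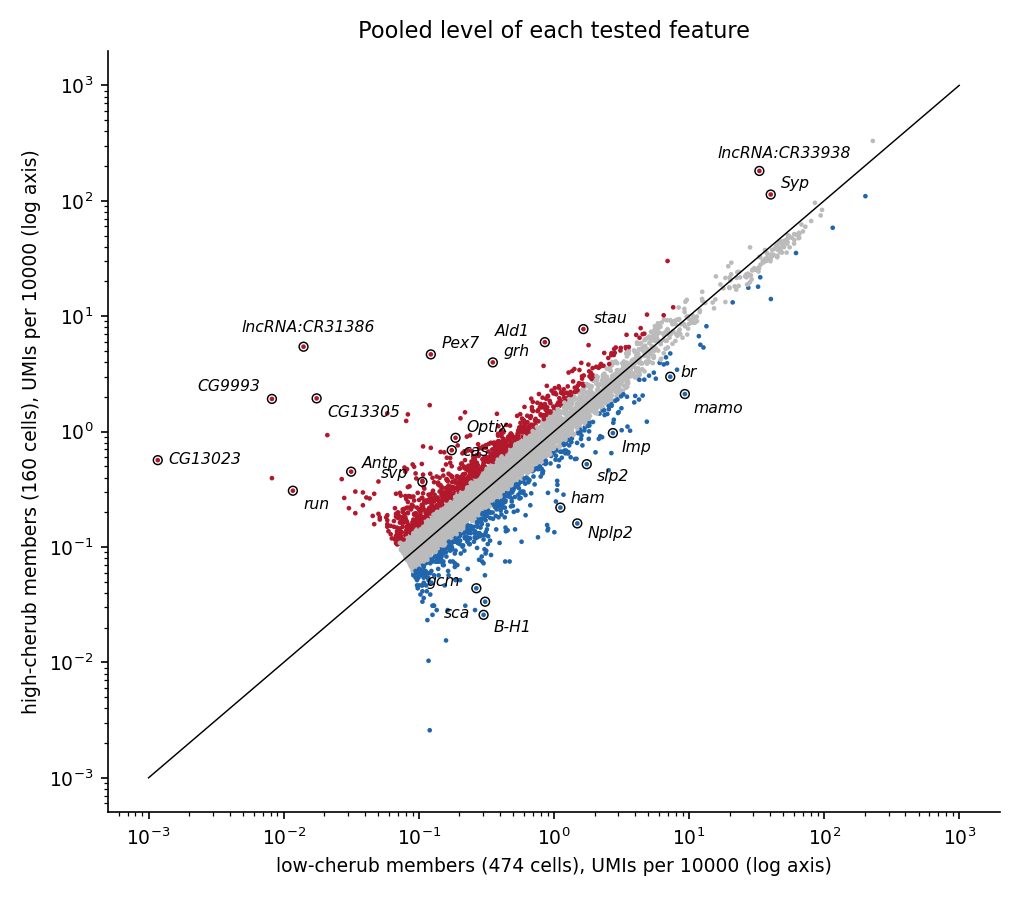
Pooled level (UMIs per 10000, log axes) of each tested feature in the 160 high members (vertical) against the 474 low members (horizontal). Points above the line are higher in high members, red where called higher and blue where called lower. *lncRNA:CR31386*, *CG9993*, *CG13305* and *Pex7* lie far above the line, with ratios of 388, 234, 111 and 38.01.

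Temporal genes differed in both directions. Of the 4 early temporal genes tested, 3 were higher in high members (*grh*, *cas* and *svp*) and 1 was lower (*D*). The log2 ratio of *D* was -1.10, from -3.11 to -0.34 over the settings tried. Over all features tested, 15.3% were higher and 9.01% lower. Of the early series, *grh* was at 3.98 per 10000 in high and 0.353 in low members (ratio 11.3, 9.95 to 12.8), with a UMI in 73.8% of high, 33.3% of middle and 17.5% of low members, against 12.3% of hemocytes. *cas* was at 0.690 in high and 0.175 in low members (ratio 3.93), with a UMI in 52.5% of high and 21.7% of low members. *svp*, which acts with *cas* to time the larval switch, was at 0.367 in high and 0.106 in low members, and 70 of its 91 UMIs in low members came from 1 cell. It was found in 32.5% of high and 3.38% of low members. A UMI of *svp* or *cas* was present in 74.4% of high and 24.3% of low members. Among members without *elav* (16 high and 37 low cells) *cas* and *svp* were lower in the high cells, with log2 ratios of -1.48 and -1.69. *hb*, *Kr*, *nub* and *pdm2*, the earliest factors, had at most 7 UMIs in either group.

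*Syp* and *Imp* differed in opposite directions. *Syp* was pooled at 113 per 10000 in high and 40.3 in low members (ratio 2.81), but the medians over cells, 31.6 in high and 30.2 in low members, were close. The upper quartile was 95.4 per 10000 in high and 46.05 in low members. *Imp* was at 0.971 per 10000 in high and 2.73 in low members (ratio 0.355, 0.318 to 0.396), with a UMI in 33.8% of high and 74.5% of low members, against 92.6% of hemocytes. Nearly all members held *Syp*, and 65.0% of high against 25.3% of low members held it without *Imp*. *chinmo* was higher in high members (3.85 per 10000, against 2.57 in low members, ratio 1.501), just past the limit, and was not called without doublets (log2 ratio 0.51), with a single limit at 20 (0.55) or without *elav* (0.23). In contrast, *br* (2.99 in high, 7.27 in low) and *mamo* (2.12 in high, 9.32 in low) were lower. *Eip93F* was higher, with a log2 ratio of 0.79, from 0.46 to 1.40 over the settings tried. Of the 8 late temporal and timing genes tested, 3 were higher, 3 lower and 2 neither.

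*stau* followed the pattern of *Syp*. It was pooled at 7.73 per 10000 in high and 1.65 in low members (ratio 4.67, 4.39 to 4.98), with medians over cells of 2.17 in high and 1.48 in low members. A UMI was present in 78.1% of high and 80.4% of low members, and after thinning in 56.4% of high and 35.6% of low members. It was the asymmetric division gene with the highest ratio. Of the 26 tested genes of that list, 2 were higher (*stau* and *insc*), 1 lower (*Khc-73*) and 23 neither, and after thinning *insc* and *Khc-73* were no longer called (log2 ratios of 0.06 and -0.42). The shares over all features tested were 15.3% higher and 9.01% lower, and neither count of the list stood above its share.

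The low members had more of the optic lobe temporal genes. Of the 16 genes, 10 were lower in high members and 2 higher (*hth* and *dac*), with a median log2 ratio of -1.07, which was -0.34 as a mean over cells. Over all features tested, 9.01% were lower and 15.3% higher. The call was lost for *hth* with depth weighting (log2 ratio 0.05), for *dac* with a single limit at 20 (0.42), and for *erm* and *opa* as a mean over cells (-0.27 each). *slp2* was at 0.522 per 10000 in high and 1.75 in low members (ratio 0.298, 0.256 to 0.345), and *scro*, a homeobox factor of medulla neuroblasts, at 0.651 in high and 2.66 in low members. *ham* was at 0.219 in high and 1.12 in low members (ratio 0.197). At least 1 of *slp1*, *slp2*, *ey*, *opa* and *scro* was present in 72.5% of high and 96.2% of low members, against 21.3% of hemocytes. *ey* was lower when pooled (log2 ratio -1.05) but not as a mean over cells (0.21).

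Genes of body position went the other way. *Antp*, the Hox gene of the thorax, had 174 UMIs in high members and 27 UMIs in low members (0.449 per 10000 in high, 0.0316 in low, ratio 14.2, 9.45 to 22.2), with 14 of the 27 in 1 cell. Among cells without *elav* its log2 ratio was 0.52, below the limit for a call, against 3.83 in all. It was the Hox gene that passed the minimum of 100 UMIs. *Ubx* had 30 UMIs in high and 7 in low members. A UMI of *Antp* or *Ubx* was found in 32.5% of high, 14.6% of middle and 3.59% of low members, against 7.38% of hemocytes. *tsh*, a trunk factor, was found in 29.4% of high and 6.75% of low members. *Optix*, a factor of the optic lobe and eye, was found in 31.9% of high and 11.4% of low members. Few high members, 10 of 160, held *Optix* together with *Antp* or *Ubx*, and 93 of 160 held at least 1 of the 3. *vvl*, a POU factor, was at 1.69 per 10000 in high and 0.120 in low members (ratio 14.1), and *oc*, a head gap factor, at 0.488 in high and 0.0784 in low members (ratio 6.23).

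The high members had more of the genes of ribosome production. Of 23 nucleolar and ribosome biogenesis genes, 18 were higher and none lower, with a median log2 ratio of 0.99 against 0.01 over all features tested, and of 0.54 among cells without *elav*. The share called higher over all features tested was 15.3%. *RpI1*, the large subunit of RNA polymerase I, was at 0.294 per 10000 in high and 0.0725 in low members (ratio 4.06, 2.96 to 5.63), *nop5* at 2.49 in high and 0.887 in low members, and *mbm*, a nucleolar protein of neuroblasts, at 0.674 in high and 0.218 in low members. Of 11 glycolytic genes, 6 were higher, led by the aldolase *Ald1* at 5.96 in high and 0.857 in low members (ratio 6.95, 6.39 to 7.56). The median log2 ratio of glycolysis was 0.63 when pooled, 0.17 as a mean over cells and -0.07 with limits of 300 and 5 *cherub* UMIs per 10000.

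DNA replication genes were lower in part. None of the 27 was higher and 7 were lower (median log2 ratio -0.43), where the share called lower among all features tested was 9.01%. *E2f1* was at 5.65 per 10000 in high and 12.1 in low members. Of 37 mitosis genes, 4 were higher (*CycA*, *CycB*, *CycB3*, *asp*), 1 lower (*cal1*) and 32 neither, with *CycB3* not called as a mean over cells (log2 ratio 0.53). The count of higher mitosis genes did not exceed the 15.3% called higher over all features tested. Of the 8 neuronal genes tested none was higher and 2 were lower, *futsch* and *unc-104*, the second with a log2 ratio of -0.29 without *elav*. Of the type II and INP genes, *Sp1* was higher and *erm*, *opa* and *ham* were lower.

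The lowest ratios in high members belonged to *B-H1*, a homeobox factor (10 UMIs in high and 258 UMIs in low members, ratio 0.0856), *lncRNA:CR44627*, *CG32365*, *Nplp2* and *sca*, a secreted protein of the proneural pathway (13 UMIs in high and 265 UMIs in low members, ratio 0.108). For *Nplp2*, 553 of the 1274 UMIs in low members came from 1 cell, its level in hemocytes was 169 per 10000, and with a single limit at 20 *cherub* UMIs per 10000 its log2 ratio was -0.03. Among cells without *elav* (16 high and 37 low) *B-H1*, *lncRNA:CR44627* and *CG32365* were not called, with log2 ratios of -0.29, -0.07 and -0.07. *B-H1* was found in 5% of high and 17.5% of low members.

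The 160 high members were themselves not uniform. They were divided into 4 bins of 40 cells by their *cherub* level (limits of 104.2, 265, 584, 1293 and 2329 per 10000), and depth fell along the bins, with medians of 35481.5, 22936.5, 11439.5 and 7989 UMIs. Depth is the divisor of this level, so a shallow cell reaches a high bin with fewer *cherub* UMIs. Summed *cherub* UMIs were 30931 in bin 1 and 53212 in bin 4. The bins thus sort cells by depth as well as by *cherub*, and the part of depth in what follows was not tested. *Syp* was at 148, 116, 41.0 and 21.7 per 10000 in bins 1 to 4. *stau* was at 10.6, 7.05, 2.73 and 2.15, and *lncRNA:CR31386* at 7.28, 5.67, 1.22 and 0.895. *Ald1* was at 9.02, 4.77, 1.30 and 0.507 per 10000. Most UMIs of these genes in high members thus came from the deep cells of the first 2 bins. *lncRNA:CR31386* and *stau* stood above their pooled level in low members in every bin. *Syp* was near its level in low members in bin 3 and below it in bin 4. *Ald1* was above its level in low members in bin 3 and below it in bin 4. *CycE* was at 4.69 in bin 1 and 0.865 in bin 4, and *PCNA* at 6.28 in bin 1 and 1.79 in bin 4.

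Other genes ran the opposite way. *nerfin-1*, a zinc-finger factor of GMCs and newborn neurons, was at 0.258, 0.411, 1.71 and 5.34 per 10000 in bins 1 to 4. *elav* was at 1.27, 2.38, 4.36 and 6.44, *cas* at 0.0933, 0.436, 1.85 and 3.13, and *chinmo* at 2.29, 3.77, 5.32 and 10.4. *Hey*, a Notch target of newborn neurons, was at 0.203 in bin 1 and 2.09 in bin 4, and *wor* at 1.47 in bin 1 and 4.03 in bin 4. The other gate genes differed from *wor*, with *mira* at 6.24 in bin 1 and 2.42 in bin 4 and *dpn* at 1.26 in bin 1 and 1.85 in bin 4. The bin with the most *cherub* per UMI was therefore the shallowest, with the most *nerfin-1*, *elav* and *cas* and the least *CycE* and *PCNA*. Its values go partly against the name neuroblast. Its *elav* was above the 5.28 per 10000 of all other cells, and its *mira* was the lowest of the 4 bins. Its *wor* and *ase* were the highest, with *ase* at 2.54 per 10000, against 0.730 in bin 1. Whether its cells are neuroblasts, GMCs or newborn neurons was not tested. *pros* differed less along the bins, staying between 6.79 and 7.99 per 10000, and *Pex7* was at 5.55, 4.17, 2.75 and 4.54 per 10000.

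**Figure D5:**
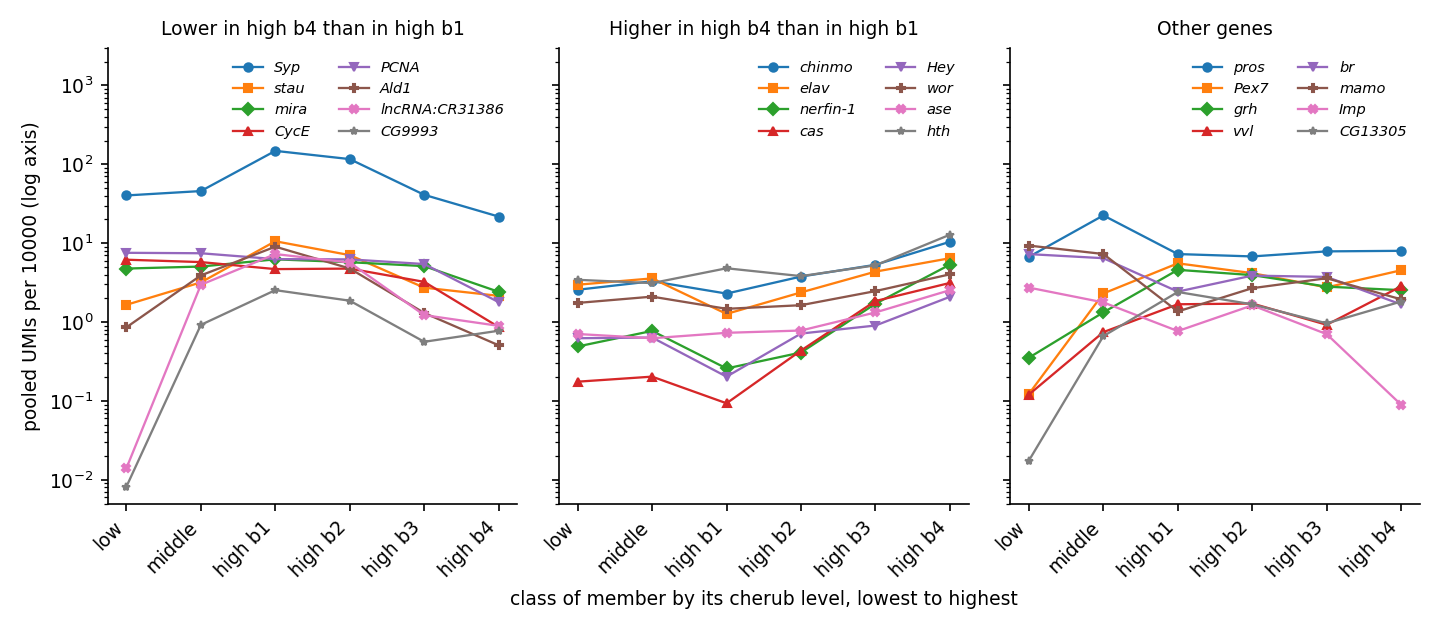
Pooled level (UMIs per 10000, log axis) of named genes in low and middle members and in the 4 bins of the high members (b1 to b4), ordered from the lowest to the highest *cherub* level. Genes that were lower in b4 than in b1 are on the left, genes that were higher in b4 in the middle and other genes on the right. *Syp* peaks at 148 in b1, and *nerfin-1* reaches 5.34 in b4.

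The 83 high members with *lncRNA:CR31386* differed from the 77 without it in the same way. Cells with it had a median of 22381 UMIs and those without it 8722 UMIs. *Syp* was at 143 per 10000 in cells with it and 26.7 in cells without it, *stau* at 9.91 in cells with it and 1.46 without, and *CG9993* at 2.53 in cells with it and 0.150 without. *cas* was lower in cells with it (0.331 per 10000, against 1.72 without), as was *cherub* (380, against 627 without). The 52 high members with *svp* were deeper still (median 39725.5 UMIs, against 10369.5 UMIs in the 108 without), with *Syp* at 160 and *cas* at 0.205 per 10000, against 45.3 and 1.40 in the cells without *svp*. The 52 high members with *Antp* or *Ubx* differed less from the other 108, with *cherub* at 361 against 509.5 and *grh* at 4.84 against 3.29 per 10000. Since a UMI is found more easily in a deep cell, the part of depth in these splits was not tested.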

How the data were processed

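The authors dissociated brains with eye discs, made droplet libraries, and mapped and counted reads with Cell Ranger on the BDGP6 genome. Per the labels, Seurat was also used. The deposited values are natural logs of (1 + level), where a level is a cell's UMIs of a gene scaled to a total of 10000, and both scale and base were read from the values. The log was undone and 100% of values came out as whole UMIs within a tolerance of 0.01. The library held 243468253 UMIs over 15902 features, with 500 to 333220 UMIs per cell (median 4092). All cells were kept. Scrublet called 12.83% of them doublets, and one alternative dropped these. Both tables share all barcodes and are identical, so 1 was used.

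The members, the 21 gene lists and the named genes were chosen with earlier results of these data known. Named genes were the 10 highest and 10 lowest ratios per comparison (at least 100 UMIs, and a UMI in at least 20 cells of the group where the gene was higher), the extremes of each list, all Hox and temporal genes and cell type markers. Others (such as *tsh*, *vvl*, *scro*, *PCNA*, *nop5*, *mbm*, *Hey* and *lncRNA:CR33938* among high and low members) were chosen after their values were seen. The high, middle and low classes, the 4 bins and the splits by a gene were also set after seeing the data, as were the high and low comparison and its alternatives. A group at 0 UMIs was set to a floor of 3 counts. Gated reference classes had no *wor*, *mira* or *dpn*: neurons held *nSyb*, glia *repo*, and hemocytes at least 2 of *Hml*, *NimC1*, *eater* and *Sr-CI*. Of 14011 features other than those with insertion identifiers, 13330 matched the Ensembl BDGP6 annotation by name, from which coordinates come, and 4 list symbols were not found. Ratios were computed in Python 3.11.15 with numpy 2.4.6 and scipy 1.17.1, doublets with scanpy 1.11.5, and the ratio code was tested on simulated data. Alternatives were a mean over cells, thinning to 3000 UMIs, weighting of the reference cells over 5 depth bins, other UMI minimums, at least 2 *cherub* UMIs, other gates and limits, totals without *cherub*, a pseudocount of 0.1, and leaving out called doublets or cells with *elav*.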

Additional observations from a re-analysis of the deposited data

How the results depend on the processing

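The counts of features at 1.5-fold moved by over 1.5 times under these settings. For members over other cells, 2345 were lower with at least 10 UMIs in each group. For members over neuroblasts without *cherub*, 473 were higher and 266 lower after thinning to 3000 UMIs, 127 and 304 with at least 10 UMIs in each group, and 236 and 137 among members without *elav*; 1167 were lower with a minimum of 20 UMIs and 1351 with no minimum. For high over low members, 490 were higher as a mean over cells, 114 higher and 186 lower after thinning, 350 higher with limits of 300 and 5 *cherub* UMIs per 10000, 120 higher and 145 lower without *elav*, 951 lower with a minimum of 20 UMIs, and 1891 higher and 1477 lower with no minimum. Thinning and leaving out *elav* also left fewer features to test. The gate held 1145 cells with no condition on *nSyb*, *repo* and *eya* and 134 after thinning.

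These values changed direction from one past 1.5-fold, and the cause was not tested. Among cells without *elav*, the median log2 ratio of the early temporal series over other cells was 0.49, and that of *cas* and *svp* in high over low members was -1.48 and -1.69. The log2 ratio of *ey* in high over low members was 0.21 as a mean over cells and 0.41 after thinning, and the median of glycolysis was -0.07 with limits of 300 and 5. *stau* in members over neuroblasts without *cherub* was at -0.29 with depth weighting. *Imp* in members over other cells, not called when pooled (-0.41), was at 1.31 among members without *elav*, and *cas* (-0.04) at 0.60 as a mean over cells. Other uncalled genes moved further. *svp* in members over other cells (-0.42) ran from -1.45 to 2.05 over the settings tried. *pnt* in high over low members (-0.32) ran from -1.18 to 3.90. A gene left at 0 UMIs in a group by a setting has no value there when the floor could not give a direction. No paired analysis was possible because all cells came from 1 table. The intervals cover counting error only, not spread between animals or cells.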
